A study of Mus musculus with 7 samples.

Results

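GABA is the main inhibitory transmitter of the hippocampus, and its signal needs enzymes that make and degrade it, transporters, receptors, their effector channels and a chloride gradient. The genes described here cover these steps. They are 25 of the 55536 genes of the deposited tables, listed by name and matched on the gene symbol. The list was drawn up with earlier results of these data known, though the matching itself uses no measured value. Glutamate decarboxylases (*Gad1*, *Gad2*) make GABA, the vesicular carrier *Slc32a1* loads it into vesicles, the transporter *Slc6a11* takes it up and the transaminase *Abat* degrades it. Ionotropic GABA-A receptors are chloride channels assembled from subunits (*Gabra2*, *Gabra3*, *Gabra4*, *Gabra5*, *Gabrb1*, *Gabrb2*, *Gabrg1*, *Gabrg3*, *Gabrd*). Metabotropic GABA-B receptors need both *Gabbr1* and *Gabbr2*, carry auxiliary subunits (*Kctd8*, *Kctd12*, *Kctd16*) and open potassium channels (*Kcnj3*, *Kcnj6*). *Nlgn2* and *Iqsec3* belong to the inhibitory postsynapse, and *Slc12a2* and *Slc12a5* move chloride into and out of the cell.

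Nuclei came from hippocampal tissue of 10-month-old mice of 4 groups, single housed, with 6 mice each (3 females, F1 to F3, and 3 males, M1 to M3). Wild-type (WT) mice and hemizygous Arctic48 (Arc) mice, which carry a human APP transgene with the Indiana, Swedish and Arctic mutations on a C57BL6/J background, drank water (WT-Veh, Arc-Veh) or water with PMX205 at 20 µg/ml (WT-PMX, Arc-PMX), for 12 weeks by the labels and for a somewhat shorter span by the ages in the study's text. PMX205 is a cyclic hexapeptide that blocks the complement receptor C5aR1. The promoter that drives the transgene is not given in the sources used here. Nuclei were barcoded by split-pool ligation in 24 first-round wells, 1 mouse per well, so a well is a replicate, and the 7 deposited sublibraries share these wells. Microglia selected on CD11b filled the other 24 wells and were not used.

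Of 45138 nuclei that passed the filters, 43885 remained after removal of doublets. They formed 42 clusters, of which 5 clusters with 3545 nuclei stayed unnamed. Clusters were named from marker genes, with *Prox1* required for dentate granule neurons, *Fibcd1* for CA1, *Grik4* for CA3, and both *Gad1* and *Gad2* for interneurons, each in at least 25% of nuclei. A type name below stands for nuclei like that type. The 8 types held 8604 dentate granule, 4850 CA1, 2435 CA3, 2661 interneuron, 5445 astrocyte, 4161 oligodendrocyte, 1329 oligodendrocyte progenitor (OPC) and 1509 microglial nuclei. Median transcripts per nucleus ran from 1007 in microglia to 16729 in CA3. WT-Veh F3 and M3 held few oligodendrocytes (15 and 28) and microglia (0 and 3), and 8449 of the 45138 nuclei had a barcode that also occurs in another sublibrary. The genotype labels were checked on *App*, which in the pooled neurons was 488 ± 28.7 CPM with WT-Veh (SD over 6 wells) and 647 ± 85.3 CPM with Arc-Veh, higher by 0.39 on the log2 scale (adjusted p = 0.0187 by edgeR). WT-PMX wells reached 575 CPM and Arc-PMX wells began at 546 CPM, so these groups overlapped, while all Arc-Veh wells lay above all WT-Veh wells. The study left out 1 WT sample as Arctic by its expression without naming it, and all wells were kept here.

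CPM are counts per 1000000 transcripts of the type in a well. Nuclear RNA holds introns, which favours long genes, so levels are compared between cell types, and between genes only per kilobase of the gene's span. *Gad1* (chr2:70553072-70602014, + strand, mm10, Ensembl coordinates) spans 48.9 kb and overlaps the antisense gene *Gad1os*. *Gad2* (chr2:22622205-22693874, + strand) spans 71.7 kb and *Slc6a11* (chr6:114131241-114249952, + strand) spans 118.7 kb. The 5' ends of *Gabra4* and *Gabrb1*, which lie on opposite strands of chromosome 5, overlap. Whether counting used the strand is not given in the sources used here, so reads of such partners may not be told apart.

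The promoters of *Gad1* and *Gad2* are shown for the cell type patterns below, and that of *Slc6a11* for the group differences. *Abat*, which also differed between groups, had no promoter entry. Each run gives the 250 bases before the RefSeq transcript start on the gene's strand (GRCm38.p6), at chr2:70561879-70562128, chr2:22622077-22622326 and chr6:114130991-114131240, all on the + strand. The *Gad1* window lies inside the Ensembl span of *Gad1* given above, and the *Gad2* window runs past the Ensembl start of *Gad2*. Capitals mark the GC box GGGCGG on either strand.
Gad1: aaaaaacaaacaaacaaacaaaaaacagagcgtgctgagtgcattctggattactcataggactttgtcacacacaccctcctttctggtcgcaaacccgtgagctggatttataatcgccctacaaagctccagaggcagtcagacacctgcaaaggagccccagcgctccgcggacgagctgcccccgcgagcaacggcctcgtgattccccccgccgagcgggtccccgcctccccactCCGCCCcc
Gad2: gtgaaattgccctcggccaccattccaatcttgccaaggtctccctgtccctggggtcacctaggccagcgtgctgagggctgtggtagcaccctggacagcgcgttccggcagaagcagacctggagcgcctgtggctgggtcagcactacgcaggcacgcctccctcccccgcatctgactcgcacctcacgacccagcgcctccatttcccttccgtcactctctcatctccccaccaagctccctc
Slc6a11: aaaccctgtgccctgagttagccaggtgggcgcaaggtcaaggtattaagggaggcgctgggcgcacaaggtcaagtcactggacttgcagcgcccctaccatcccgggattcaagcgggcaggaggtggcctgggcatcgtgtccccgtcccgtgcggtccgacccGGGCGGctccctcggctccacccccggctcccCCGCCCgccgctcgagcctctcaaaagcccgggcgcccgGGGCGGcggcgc
The *Gad1* window held 1 GC box, the *Slc6a11* window 3 and the *Gad2* window 0. The TATA motif TATAAA, searched on both strands, had 1 match in the *Gad1* window and 0 in the *Gad2* and *Slc6a11* windows. RefSeq promoter entries matched 21 of the 25 genes, which have 27 entries in all, of which 13 held a GC box, each from a different gene. Per entry, the same search found the GC box in 32.7% and TATAAA in 12.4% of all 32851 promoters of that length. A match describes the letters of the window and not a bound site.

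Interneurons held both *Gad1* and *Gad2*, whereas dentate granule neurons and OPCs held *Gad1* with little *Gad2*. Interneurons held 335 ± 58.1 CPM of *Gad1* and 332 ± 33.6 CPM of *Gad2* (SD, n = 24 wells), or 6.85 and 4.62 CPM per kilobase of span. Both genes helped to name these clusters, so their levels there are a description. OPCs held 77.6 ± 29.6 CPM of *Gad1*, above dentate granule neurons (47.9 ± 7.62 CPM) in 22 of 24 wells, while CA1 and CA3 held 0.566 ± 0.668 and 0.393 ± 0.444 CPM. *Gad2* stayed at 1.04 ± 0.911 CPM in dentate granule neurons and 3.52 ± 4.17 CPM in OPCs. The ratio of *Gad1* to *Gad2* transcripts, pooled over wells and not corrected for length, was 45.0 in dentate granule neurons and 21.3 in OPCs, against 1 in interneurons and 0.821 in CA1.

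Single nuclei showed the same split. With each nucleus thinned to 1000 transcripts, *Gad1* was detected in 4.26% of dentate granule nuclei (exact 95% binomial interval 3.84 to 4.71), 7.30% of OPCs (5.90 to 8.91) and 26.1% of interneurons (24.4 to 27.9). In CA1 and CA3, which should lack the gene, the shares were 0.0835% (0.0228 to 0.214) and 0.0414% (0.00105 to 0.231), and in astrocytes 0.516% (0.327 to 0.773). Intervals cover counting error only. Thinning left out 121 of 8604 dentate granule nuclei, 110 of 1329 OPCs and 986 of 5445 astrocytes. Without thinning, *Gad1* was found in 24.6% of dentate granule nuclei (median 6003 transcripts), 16.7% of OPCs (median 2306) and 0.598% of CA1 nuclei (median 11315). Of 8604 dentate granule nuclei, 2097 had *Gad1* alone, 41 had *Gad2* alone and 20 had both. Among 2661 interneurons 1694 had both, and among 1329 OPCs 219 had *Gad1* alone, 10 had *Gad2* alone and 3 had both. In OPCs the interneuron genes *Lhx6*, *Sst* and *Pvalb* lay at 0.148, 0.166 and 0.242 CPM, against 73.1, 19.7 and 26.4 CPM in the largest interneuron cluster. *Erbb4* and *Nxph1*, also on the list of 13 interneuron markers, were at 3157 and 3216 CPM in OPCs. The list summed to between 8046 and 10141 CPM in OPC wells, with *Dlx6os1*, *Sst*, *Pvalb*, *Vip* or *Lhx6* at 0 in some groups, and its part in the OPC level of *Gad1* was not tested.

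**Figure D1:**
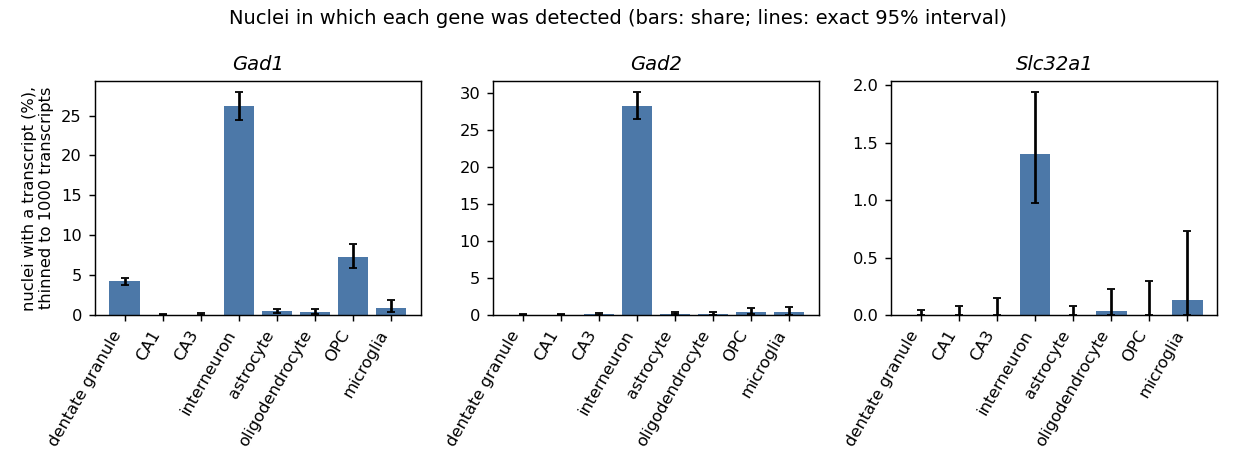
Share of nuclei with a transcript of *Gad1*, *Gad2* and *Slc32a1* by cell type (%), after thinning to 1000 transcripts per nucleus, with exact 95% intervals as lines. *Gad1* has bars in interneurons, OPCs (7.30%) and dentate granule neurons (4.26%), whereas *Gad2* and *Slc32a1* are near 0 outside interneurons.

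The vesicular carrier *Slc32a1* was scarce, at 16.2 ± 8.2 CPM in interneurons and under 1 CPM in the other 7 named types. It was seen in 371 of 2661 interneurons, 1 of 8604 dentate granule nuclei and 0 of 1329 OPCs. The limit of 3 counts allows up to 0.226% of OPCs with a detected transcript, which at this depth does not bound the share of OPCs that hold the transcript. *Slc6a11* was an astrocyte gene, with 361 ± 111 CPM in astrocytes and 30.4 ± 14.9 CPM in OPCs, the next type, lower in 24 of 24 wells. *Abat* was shared by interneurons (241 ± 36.2 CPM) and astrocytes (199 ± 49.0 CPM), with interneurons higher in 20 of 24 wells, and lay at 29.1 to 39.1 CPM in the 3 types of excitatory neurons.

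The levels of the GABA-A alpha and delta subunits differed by type. *Gabra2* was broad, from 662 to 720 CPM in CA3, CA1 and dentate granule neurons, whose order did not hold in all wells (dentate granule above CA1 in 15 of 24), and 504 ± 82.0 CPM in astrocytes. *Gabra5*, whose subunit is typical of extrasynaptic receptors of pyramidal neurons, was highest in CA3 (252 ± 33.3 CPM), above CA1 (213 ± 30.7 CPM) in 22 of 24 wells, and lay at 36.0 ± 12.7 CPM in interneurons. *Gabra4* and *Gabrd*, the partners of tonic inhibition in the dentate gyrus, were both highest in dentate granule neurons. *Gabra4* had 274 ± 31.8 CPM there against 123 ± 21.1 CPM in CA3 (higher in 24 of 24 wells), and *Gabrd* 26.7 ± 6.68 CPM against 12.6 ± 4.32 CPM in interneurons (22 of 24 wells). *Gabra3* was at 1.28 ± 0.882 CPM in dentate granule neurons and reached 65.3 ± 13.0 CPM in CA1, 81.4 ± 18.4 CPM in interneurons and 90.2 ± 38.2 CPM in OPCs (OPCs above interneurons in 14 of 24 wells).

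Among the beta and gamma subunits, *Gabrb1* and *Gabrg1* were highest in astrocytes and *Gabrb2* and *Gabrg3* in interneurons, within the 8 named types. Astrocytes held 4350 ± 473 CPM of *Gabrb1*, 3.08 times the level of CA3 (1414 ± 182 CPM) and higher in 24 of 24 wells. *Gabrb2*, in contrast, lay at 13.0 ± 8.30 CPM in astrocytes and at 520 ± 75.5 CPM in interneurons and 499 ± 51.6 CPM in dentate granule neurons, whose order held in 17 of 24 wells, within their spread. *Gabrg1* was highest in astrocytes (101 ± 31.8 CPM) and next in OPCs (42.9 ± 18.9 CPM), with 1.40 to 2.75 CPM in excitatory neurons. *Gabrg3* was highest in interneurons (2213 ± 196 CPM), 3.12 times the level of CA1 (710.3 ± 77.8 CPM), and lowest among neurons in dentate granule cells (181 ± 27.3 CPM). Per kilobase of span, *Gabrb1* was the leading member of astrocytes after *Gabbr1*, at 8.86 against 10.6 CPM per kb, with *Gabra2* at 3.65.

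**Figure D2:**
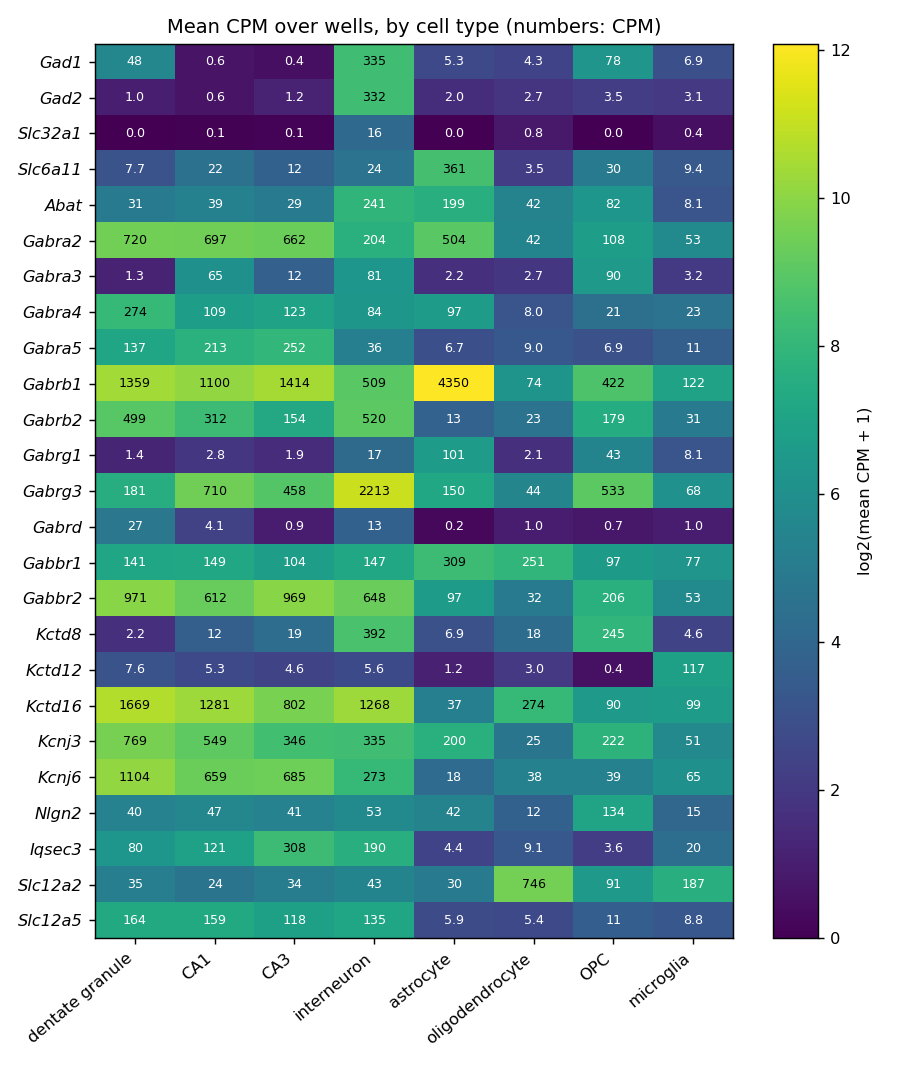
Mean CPM over wells of the 25 genes (rows) in 8 cell types (columns), coloured by log2(mean CPM + 1), with the CPM printed in each cell. *Gad1*, *Gad2*, *Slc32a1*, *Gabrg3* and *Kctd8* peak in interneurons, *Slc6a11*, *Gabrb1* and *Gabrg1* in astrocytes, *Kctd12* in microglia and *Slc12a2* in oligodendrocytes.

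Of the GABA-B genes, *Gabbr1* was highest in astrocytes (309 ± 69.0 CPM) and oligodendrocytes (251 ± 97.9 CPM), lay at 104 to 149 CPM in the 4 neuronal types, and was lowest in OPCs and microglia (96.5 and 77.5 CPM). *Gabbr2* was highest in neurons, with 971 ± 133 and 969 ± 133 CPM in dentate granule and CA3 neurons, whose order did not hold across wells (10 of 24), and 97.2 ± 40.9 CPM in astrocytes. The auxiliary subunits were divided by type. *Kctd16* was highest in dentate granule neurons (1669 ± 126 CPM), *Kctd8* in interneurons (392 ± 55.8 CPM) and OPCs (245 ± 68.8 CPM), and *Kctd12* in microglia (117 ± 78.4 CPM against 7.56 ± 2.76 CPM in dentate granule neurons, higher in 21 of 21 wells). *Kcnj3* and *Kcnj6*, subunits of the potassium channels that GABA-B receptors open, were both highest in dentate granule neurons, at 769 ± 144 and 1104 ± 153 CPM, and lower in interneurons (335 ± 74.8 and 273 ± 46.1 CPM). *Iqsec3*, an exchange factor that binds the gephyrin scaffold, was highest in CA3 (308 ± 54.7 CPM), and *Nlgn2*, an adhesion molecule of inhibitory synapses, in OPCs (134 ± 40.9 CPM, 2.53 times interneurons and higher in 24 of 24 wells).

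The chloride exporter *Slc12a5* was neuronal, with 118 to 164 CPM in the 4 neuronal types and at most 11.2 CPM in glia. The importer *Slc12a2* was highest in oligodendrocytes (746 ± 88.2 CPM) and microglia (187 ± 67.7 CPM) and lay at 23.9 to 43.0 CPM in neurons. The ratio of *Slc12a5* to *Slc12a2* transcripts, which is not corrected for length and is compared between types only, was 6.36 in CA1, 4.51 in dentate granule neurons, 3.34 in CA3 and 2.90 in interneurons. On the log2 scale its mean over wells was 2.74 ± 0.46 in CA1 and 1.64 ± 0.45 in interneurons (SD, n = 24).

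Within a type, clusters differed in these genes. The values are a description, since the same nuclei formed the clusters. The 3 interneuron clusters were led by *Kcnc2*, *Nxph1* and *Kcnmb2* (1258 nuclei, with *Lhx6*, *Sst* and *Pvalb*), by *Adarb2* (855 nuclei, with *Vip* and *Cnr1*) and by *Erbb4* and *Fgf13* (548 nuclei, with *Lhx6* and *Reln*). The *Erbb4* cluster held most *Gad1* and *Gad2* (603 and 606 CPM, against 263 to 283 and 248 to 322 CPM), most *Gabrg3* (4707 CPM, against 1146 to 1895) and most *Gabrb2* (1023 CPM, against 349 to 437). *Kctd8* was concentrated in the *Kcnc2* cluster (601 CPM, against 208 and 32.6), and *Kctd16* was low there (567 CPM, against 2057 and 2200.1). In CA3, *Gabrg3* was at 22.4 CPM in the cluster led by *Kcnq5* (1371 nuclei) and 1158 CPM in the other (1064 nuclei). Another cluster with *Gad1* and *Gad2* (1730 nuclei, 218 and 277 CPM), in which *Meis2* was among the leading genes, was not named an interneuron cluster and held 1 to 231 nuclei per well. It held 13.2 ± 8.18 CPM of *Slc32a1*, and its means of *Gabrg1* (106 ± 37.2 CPM) and *Gabra3* (105 ± 40 CPM) lay above those of all 8 named types, within the spread of the highest of them.

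Arctic mice were first compared with WT mice in neurons. In the 4 neuronal types no gene of the 25 passed the test between Arc-Veh and WT-Veh. The members gave 85 gene and type pairs there, of which 0 were called by edgeR's quasi-likelihood test (adjusted p under 0.05 over all genes of the type) and 0 by DESeq2, with 2 at an unadjusted p under 0.05. Over all genes, 0.122% of pairs were called in these types. Both of the 2 were *Gabrg3*, at -0.21 ± 0.08 on the log2 scale in CA1 (SE, adjusted p = 0.71) and -0.26 ± 0.11 in dentate granule neurons (adjusted p = 0.47). Averaged over both treatments, which uses all 24 wells, 0 of 85 pairs were called by either tool, where 0.553% of all pairs were called. At an unadjusted p under 0.05 stood 5 of the 85, and 2854 of the 39268 pairs of all genes. Without the filter on low counts, *Kctd8* in CA3 was called lower (-0.58, edgeR adjusted p = 0.0245). The median log2 difference between Arc-Veh and WT-Veh over the 85 pairs was 0.03, where the median of all genes tested lay at 0.01 in each of the 4 types. The approximate 95% interval of that difference lay within 1.5-fold either way for 69 of the 85. For the averaged difference it did so for 76 of the 85.

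Interneuron *Gad2* ran from 301 to 402 CPM (median 351) in WT-Veh, 302 to 379.9 (median 354) in WT-PMX, 298 to 355 (median 339.6) in Arc-Veh and 254 to 326 (median 299) in Arc-PMX. The groups overlapped, with Arc-PMX lowest, and Arc-Veh differed from WT-Veh by -0.07 ± 0.09 (edgeR adjusted p = 0.99). *Gad1* in the same nuclei ran from 252 to 352 CPM (median 332) in WT-Veh, 281 to 508 (median 369) in WT-PMX, 272 to 416 (median 309) in Arc-Veh and 269.9 to 353 (median 324) in Arc-PMX, all overlapping. Its difference between Arc-Veh and WT-Veh was -0.01 (95% interval -0.23 to 0.21). In dentate granule neurons *Gad1* ran from 38.9 to 51.2 CPM (median 43.8) in WT-Veh and from 46.4 to 56.4 (median 52.1) in Arc-Veh, with medians of 42.5 in WT-PMX (31.3 to 68.6) and 50.6 in Arc-PMX (45.6 to 56.1). Both Arctic medians were higher, but the groups overlapped and the averaged difference of 0.18 ± 0.09 was not called (edgeR adjusted p = 0.485).

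The chloride pair did not pass the test in any neuronal type. *Slc12a5* in interneurons ran from 100.4 to 148 CPM (median 114) in WT-Veh, 103 to 222 (median 136) in WT-PMX, 111 to 188 (median 143) in Arc-Veh and 86.3 to 195 (median 122) in Arc-PMX. Arc-Veh differed from WT-Veh by 0.28 ± 0.16 (edgeR adjusted p = 0.965), with groups that overlapped. *Slc12a2* in the same nuclei ran from 33.1 to 57.8 CPM (median 38.8) in WT-Veh, 35.5 to 67.8 (median 43.7) in WT-PMX, 32.7 to 47.4 (median 43.3) in Arc-Veh and 33.3 to 57.7 (median 36.8) in Arc-PMX, also overlapping (-0.08 ± 0.18). In dentate granule, CA1 and CA3 neurons the *Slc12a5* differences were 0.17 ± 0.12, -0.04 ± 0.13 and 0.10 ± 0.13, and the *Slc12a2* differences -0.12 ± 0.16, 0.20 ± 0.13 and 0.03 ± 0.17. The mean log2 ratio of the pair in interneurons was 1.52 ± 0.33 in WT-Veh and 1.83 ± 0.28 in Arc-Veh (SD, n = 6), a difference within the spread of wells.

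Interneurons made up 9.79 ± 1.83% of the neuronal nuclei of a well in WT-Veh (7.04 to 12.2), 9.82 ± 1.12% in WT-PMX, 11.3 ± 2.10% in Arc-Veh (8.42 to 14.7) and 10.9 ± 1.57% in Arc-PMX (SD, n = 6). Arc-Veh lay 1.52 percentage points above WT-Veh (two-sided exact permutation p = 0.199, adjusted p = 0.597 over 3 comparisons, smallest possible p 0.00216). Arc-PMX lay 0.408 points below Arc-Veh (exact permutation p = 0.721, adjusted p = 0.974), and WT-PMX 0.0293 points above WT-Veh (exact permutation p = 0.974). The sign of both PMX205 differences changed with single wells left out (-0.987 to 0.276 points and -0.522 to 0.504 points) and under other settings. The cluster with *Meis2*, which was not counted here, held 5.27 ± 6.59% of neuronal nuclei in WT-Veh, 5.52 ± 3.48% in WT-PMX, 5.31 ± 6.10% in Arc-Veh and 10.1 ± 4.04% in Arc-PMX. With it added, Arc-PMX lay 4.40 points above Arc-Veh (exact permutation, adjusted p = 0.519), over 10 times the size and of opposite sign.

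**Figure D3:**
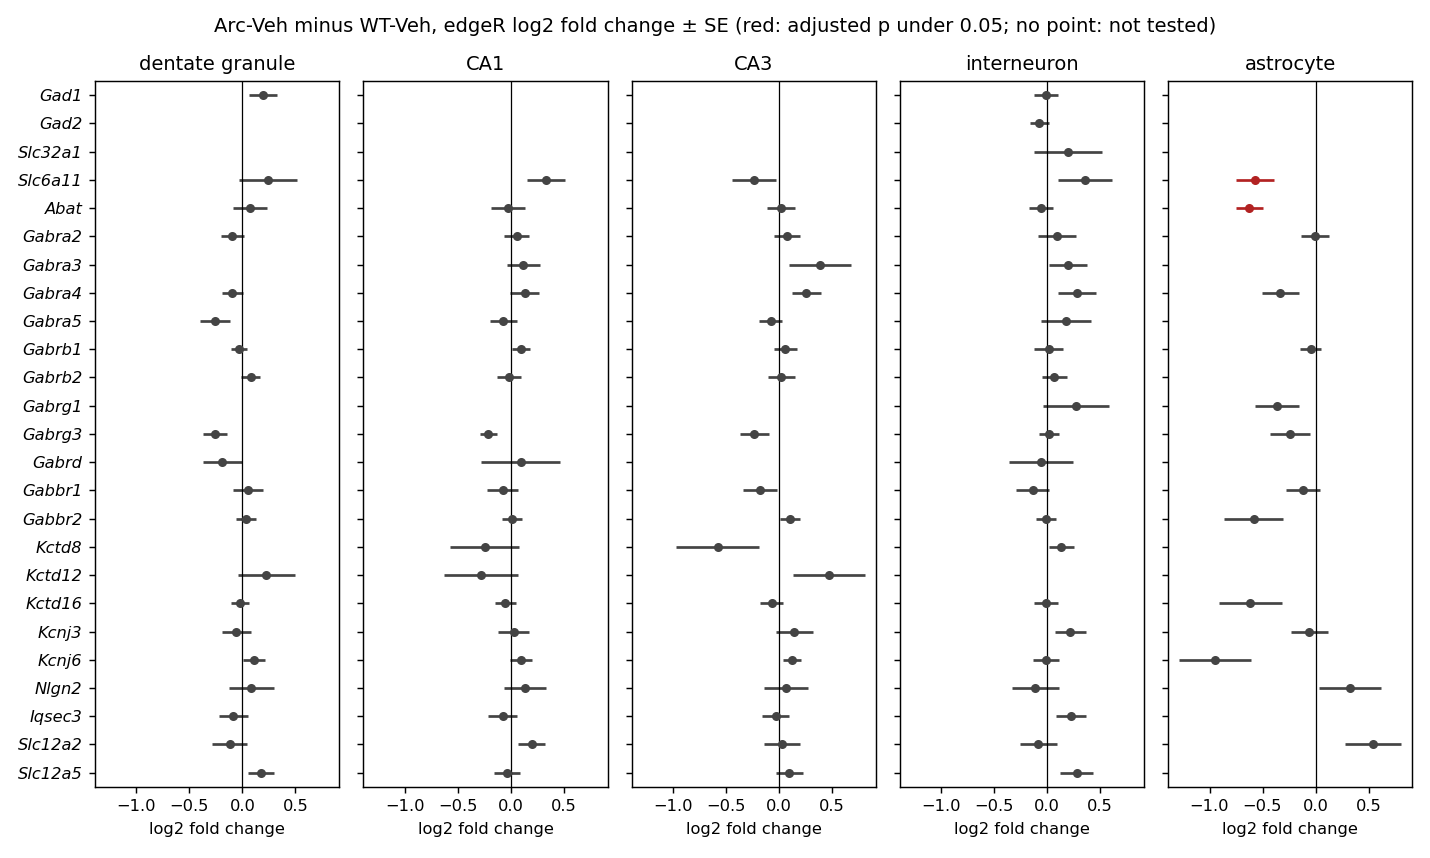
Log2 fold change ± SE of the 25 genes between Arc-Veh and WT-Veh by edgeR, with 1 panel for each of the 4 neuronal types and for astrocytes, red points for an adjusted p under 0.05 and no point where a gene was not tested. Red points occur in astrocytes alone, at *Slc6a11* (-0.57) and *Abat* (-0.62), and the neuronal points scatter around 0.

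In astrocytes, the uptake and breakdown genes were lower in Arctic mice, while the GABA-A subunits that lead per kilobase did not pass the test. Over the 8 types, 2 of 124 gene and type pairs were called between Arc-Veh and WT-Veh, by edgeR and also by DESeq2 (which gave no adjusted p for 3), where 2.43% of all genes' pairs were called. At an unadjusted p under 0.05 stood 14 of the 124, and 5762 of the 56555 pairs of all genes, a similar share only when pooled. In the 4 glial types it was 12 of 39, against 3005 of 17287 pairs of all genes. In the 4 neuronal types it was 2 of 85, against 2757 of 39268. Astrocytes had 6 of 14, against 1660 of 7308 genes. Both called pairs were astrocyte genes and lower, against 4.89% of astrocyte genes called lower. *Slc6a11* ran from 352 to 478 CPM (median 429) in WT-Veh, 300.5 to 677 (median 429) in WT-PMX, 239 to 431 (median 256) in Arc-Veh and 210.3 to 398 (median 290.3) in Arc-PMX. Of the 6 Arc-Veh wells 5 lay below all WT-Veh wells, and the groups overlapped through the sixth. The difference was -0.57 ± 0.18 (edgeR adjusted p = 0.0236), and averaged over both treatments -0.57 ± 0.12 (adjusted p = 0.000421). The single comparison lost its call without WT-Veh F1 (-0.54, adjusted p = 0.0579), WT-Veh F2 (-0.52, adjusted p = 0.0657), Arc-Veh F2 (-0.51, adjusted p = 0.0722) or Arc-Veh F3 (-0.51, adjusted p = 0.0719), and the averaged one kept it without any 1 well.

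*Abat* ran from 187 to 327 CPM (median 241) in WT-Veh, 184 to 248 (median 239.8) in WT-PMX, 148 to 177 (median 158) in Arc-Veh and 125 to 197 (median 162) in Arc-PMX. All Arc-Veh wells lay below all wells of both WT groups, and Arc-PMX overlapped them. The difference was -0.62 ± 0.13 between Arc-Veh and WT-Veh (edgeR adjusted p = 0.000529) and -0.58 ± 0.09 averaged (adjusted p = 2.9e-06), and no single well decided it. The receptor subunits *Gabrb1* and *Gabra2* differed by -0.05 ± 0.10 and -0.01 ± 0.13 (edgeR adjusted p = 0.86 and 0.99).

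**Figure D4:**
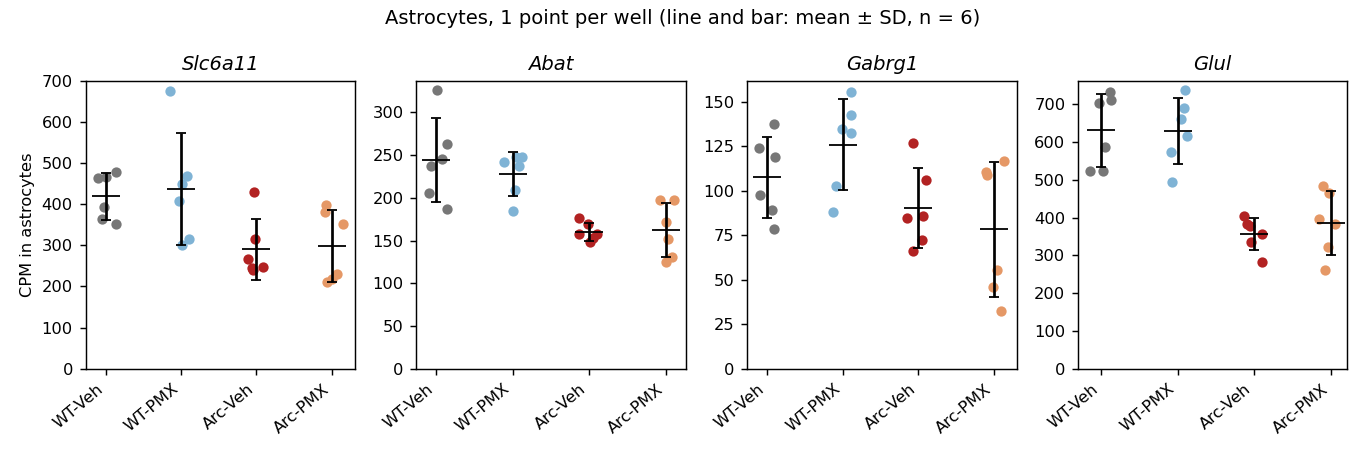
CPM of *Slc6a11*, *Abat*, *Gabrg1* and *Glul* in astrocytes by group, 1 point per well, with mean ± SD (n = 6 wells). *Abat* wells of Arc-Veh (148 to 177 CPM) lie below all WT wells, and 5 of 6 *Slc6a11* wells of Arc-Veh lie below all WT-Veh wells.

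With both treatments averaged, 8 of 124 pairs were called, all lower in Arctic mice and all in glia, against 4.33% of all pairs called. DESeq2 called 6 of them. In astrocytes 5 of the 14 members tested were lower, against 8.78% of astrocyte genes, with a median difference of -0.18 over the 14 and -0.01 over all 7308 genes. Beside *Slc6a11* and *Abat* these were *Gabrg1* (-0.49 ± 0.15, adjusted p = 0.0120), *Kcnj6* (-0.82 ± 0.23, adjusted p = 0.00733) and *Kctd16* (-0.62 ± 0.20, edgeR adjusted p = 0.0259). *Gabrg1* ran from 78.5 to 137 CPM (median 108) in WT-Veh, 88.2 to 156 (median 133) in WT-PMX, 66.2 to 127 (median 85.0) in Arc-Veh and 32.2 to 117 (median 82.2) in Arc-PMX, so all groups overlapped. *Kcnj6* was low, with medians of 25.3, 18.6, 13.3 and 12.4 CPM in WT-Veh (9.90 to 28.3), WT-PMX (12.5 to 41.7), Arc-Veh (7.04 to 15.6) and Arc-PMX (9.19 to 25.3). *Kctd16* had medians of 46.8, 42.2, 31.3 and 24.6 CPM in the same order (9.90 to 70.2, 32.9 to 64.8, 18.4 to 40.7 and 12.1 to 52.0). Both overlapped between groups. Without WT-PMX M2 the call of *Kcnj6* was lost (-0.60, adjusted p = 0.0623), and that of *Kctd16* without WT-PMX M2 (adjusted p = 0.0838), WT-Veh M2 (0.0646), Arc-PMX M3 (0.0560) or Arc-PMX M1 (0.0502).

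Oligodendrocytes and OPCs gave the other 3 calls, against 1.52% of genes called lower in oligodendrocytes and 0.679% in OPCs. Oligodendrocyte *Gabrb1* ran from 48.4 to 155 CPM (median 87.5) in WT-Veh, 31.4 to 174 (median 79.1) in WT-PMX, 29.3 to 92.5 (median 47.7) in Arc-Veh and 34.4 to 118 (median 50) in Arc-PMX. *Gabrg3* there ran from 0 to 131 CPM (median 47.0) in WT-Veh, 12.7 to 85.4 (median 48.4) in WT-PMX, 11.9 to 42.9 (median 28.1) in Arc-Veh and 13.6 to 119 (median 32.3) in Arc-PMX. Both overlapped, with averaged differences of -0.81 ± 0.22 (edgeR adjusted p = 0.0193) and -0.98 ± 0.29 (edgeR adjusted p = 0.0329), and neither was called by DESeq2 (adjusted p = 0.0598 and 0.237). *Kctd16* in OPCs ran from 53.3 to 223 CPM (median 111) in WT-Veh, 53.1 to 169 (median 88.6) in WT-PMX, 34.6 to 81.2 (median 63.4) in Arc-Veh and 50.6 to 93.4 (median 72.8) in Arc-PMX, a difference of -0.78 ± 0.20 (edgeR adjusted p = 0.0219) with overlapping groups. The *Gabrg3* call was lost without any of 10 wells (the highest adjusted p, 0.287, without WT-Veh F2). *Gabrb1* lost its call without WT-Veh F2 (adjusted p = 0.167) or WT-PMX M2 (0.0959), and OPC *Kctd16* without WT-PMX M2 (0.0818), WT-Veh M1 (0.0816), Arc-PMX M3 (0.0561) or WT-PMX M1 (0.0515). With doublets kept, and with each nucleus named by its highest marker score, these 3 calls and that of astrocyte *Kctd16* were lost. With doublets kept the call of astrocyte *Kcnj6* was also lost (adjusted p = 0.151, edgeR), while oligodendrocyte *Kcnj3* was a new call (-1.38, edgeR adjusted p = 0.0117).

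Counts of neuronal marker genes in astrocytes, oligodendrocytes and OPCs had lower means in both Arctic groups than in both WT groups. Most ranges overlapped, the differences were not tested, and whether these counts came from neurons was not tested. The 9 neuronal marker genes summed to 1349 CPM (1209 to 1511) in WT-Veh astrocytes, 1141 (958 to 1466) in WT-PMX, 893 (735 to 1129) in Arc-Veh and 951 (637 to 1407) in Arc-PMX, against 20962 to 26815 CPM in CA1. In oligodendrocytes the group means were 1308 (1114 to 1669.7), 1200.3 (592 to 2037), 917 (669.9 to 1169) and 1114 CPM (669 to 2219), and in OPCs 3447 (3002 to 4635), 3113 (2821 to 3422), 2886 (2481 to 3128) and 2853 CPM (2424 to 3526). Of the 9 markers only *Slc17a7* was at 0 in any of these groups, in Arc-PMX OPCs. In astrocytes the summed level did not overlap between WT-Veh and Arc-Veh wells, so as a covariate it is partly tied to genotype. With this level as a covariate, added after the data had been seen, the averaged calls fell from 8 to 3. *Slc6a11* (-0.67, adjusted p = 0.00446) and *Abat* (-0.60, adjusted p = 0.000555) were among them, and oligodendrocyte *Kctd16* was a new call (0.44, edgeR adjusted p = 0.0306). Astrocyte *Gabrg1* (-0.55, adjusted p = 0.0678), *Kcnj6* (-0.40, adjusted p = 0.508) and *Kctd16* (-0.12, adjusted p = 0.855), oligodendrocyte *Gabrb1* (-0.42, adjusted p = 0.394) and *Gabrg3* (-0.65, edgeR adjusted p = 0.350), and OPC *Kctd16* (-0.79, adjusted p = 0.0759) were not called. Between Arc-Veh and WT-Veh only *Abat* was then called (-0.64, adjusted p = 0.0131), with *Slc6a11* at -0.70 (adjusted p = 0.0563).

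The makeup of the astrocytes also differed by genotype. They formed 4 clusters, led by *Gpc5* and *Slc1a2* (cluster 5), *Slc1a2* and *Gpc5* with *Rorb* (cluster 6), *Gfap* (cluster 17) and *Adamts9* (cluster 23). Cluster 17 held 44.1 ± 7.39% of the astrocytes of an Arc-Veh well and 39.0 ± 7.28% of an Arc-PMX well, against 0.83 ± 0.54% and 0.82 ± 0.26% in WT-Veh and WT-PMX (SD, n = 6). The lowest Arctic well had 28.6% and the highest WT well 1.53%. Cluster 5 held 64.0 ± 23.6% and 48.5 ± 28.8% in WT-Veh and WT-PMX and 13.4 ± 15.6% and 14.8 ± 11.1% in Arc-Veh and Arc-PMX. Clusters 5 and 6 shared leading genes, *Rorb* among them, and differed in depth, with medians of 1162.5 and 2446 transcripts per nucleus. In WT-Veh and WT-PMX, 464 of 1480 and 279 of 1471 astrocytes lay below the depth used for thinning. In Arc-Veh and Arc-PMX, 116 of 1207 and 127 of 1287 did. The part of depth in the cluster 5 shares was not tested. *Slc6a11* lay at 482 CPM in cluster 5, 393 in cluster 6, 204 in cluster 17 and 229.9 in cluster 23, and *Abat* at 244, 209.7, 143 and 175 CPM, as means over the wells with at least 10 nuclei of the cluster, which for cluster 17 were Arctic wells only and for the others came from all groups. By group, *Abat* in cluster 6 was 237 and 267 CPM in WT-Veh and WT-PMX and 183 and 157 CPM in Arc-Veh and Arc-PMX, against 141 and 144 CPM in cluster 17 of the Arctic groups. In cluster 5 *Abat* was 272 and 239 CPM in WT-Veh and WT-PMX, and 201 and 243 CPM in Arc-Veh and Arc-PMX. Cluster 23 had 214, 158, 161 and 166 CPM in the same order. *Kcnj3* stood out in cluster 23, with 767 CPM against 109.9 to 206 in the others (cluster 17 again from Arctic wells only). The clusters were formed from the same nuclei, so the cluster levels are given here without a test. The shares rest on genes that differ between the groups and are given as a description.

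Fits of single clusters, added after the data had been seen, gave other values. Cluster membership rests on genes that differ between the groups, so a fit within a cluster compares selected nuclei and is a description. The averaged difference of *Slc6a11* was -0.07 ± 0.16 in cluster 5 (20 wells), 0.01 ± 0.16 in cluster 6 (23 wells) and 0.10 ± 0.25 in cluster 23 (24 wells), with no call (edgeR adjusted p = 0.94, 1 and 0.93). *Abat* was at -0.26 ± 0.21 in cluster 5 (edgeR adjusted p = 0.76) and -0.45 ± 0.14 in cluster 6 (adjusted p = 0.092), and was not tested in cluster 23. *Gabrg1* was at -0.16 ± 0.25 and 0.00 ± 0.18 in clusters 5 and 6. *Gabra2* was higher in Arctic mice within cluster 6 (0.60 ± 0.12, edgeR adjusted p = 0.00112), and at 0.26 ± 0.15 and 0.30 ± 0.17 in clusters 5 and 23. Cluster 17 held too few WT nuclei to be fitted. A lower level in each nucleus and a different mix of nuclei cannot be told apart in the summed astrocytes.

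**Figure D5:**
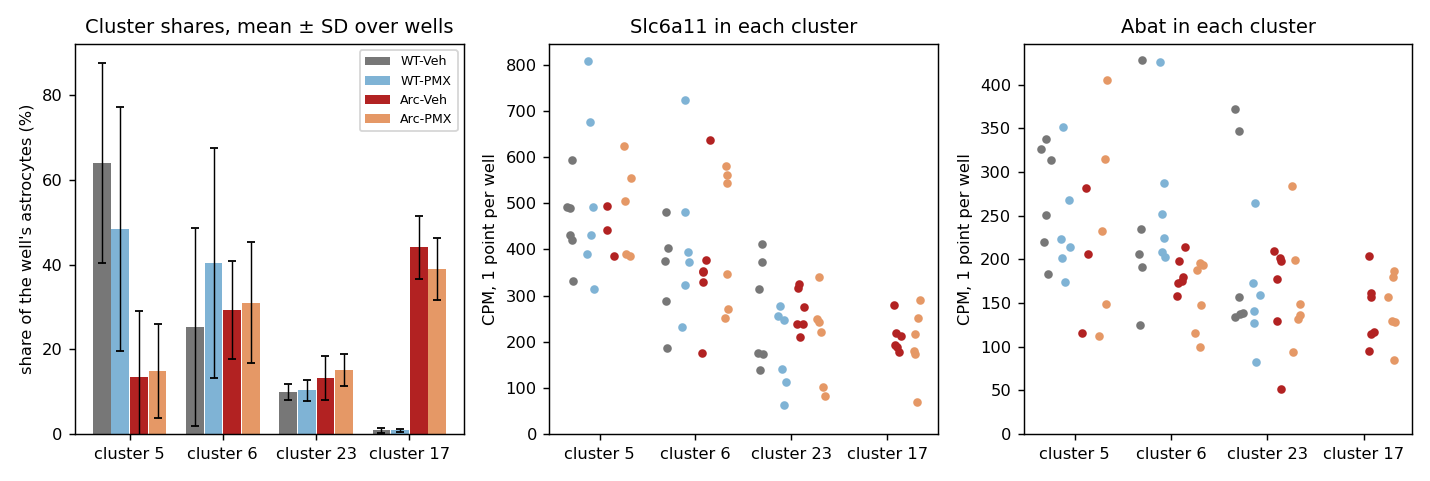
Left, share of a well's astrocytes in each of the 4 clusters by group (%, mean ± SD, n = 6 wells, the axis starting at 0). The other panels give CPM of *Slc6a11* and *Abat* within each cluster, 1 point per well with at least 10 nuclei of it, in the colours of the groups. Cluster 17 holds 44.1% and 39.0% of astrocytes in the Arctic groups and under 1% in WT groups.

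No gene of the 25 passed the test between PMX205 and vehicle. Between Arc-PMX and Arc-Veh edgeR and DESeq2 each called 0 of 124 pairs, where 0.0053% of all pairs were called, and 2 of the 124 had an unadjusted p under 0.05, as had 1302 of the 56555 pairs of all genes. The same held between WT-PMX and WT-Veh (0 calls by either tool, 2 at an unadjusted p under 0.05) and for the difference between the drug's effects in Arctic and WT mice (0 calls by either tool, 2 at an unadjusted p under 0.05), where 0.0% of all pairs were called in both comparisons. In astrocytes, the differences between Arc-PMX and Arc-Veh were 0.05 ± 0.17 for *Slc6a11*, -0.01 ± 0.13 for *Abat* and -0.13 ± 0.20 for *Gabrg1* (edgeR adjusted p = 1 each). In interneurons they were -0.04 ± 0.11 for *Gad1*, -0.17 ± 0.09 for *Gad2* and -0.26 ± 0.16 for *Slc12a5* (edgeR adjusted p = 1 each). For 70 of the 85 neuronal pairs the approximate 95% interval lay within 1.5-fold either way, and for the rest it was wider or could not be computed.

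A wider list of 49 genes of the same pathway was counted beside the 25 (GABA metabolism and uptake, other receptor subunits and receptor partners, inhibitory synapse adhesion and scaffold, GABA-B effectors, chloride and its regulators). In neurons 0 of 141 pairs were called by edgeR between Arc-Veh and WT-Veh. At an unadjusted p under 0.05 stood 11 of the 141, and 2757 of the 39268 neuronal pairs of all genes, a similar share. Over all types 6 of 211 pairs were called, 5 lower and 1 higher, where 2.43% of all pairs were called, a share near that of the list. In astrocytes *Glul*, the glutamine synthetase that serves the glutamate and GABA cycle, ran from 525 to 733 CPM (median 645) in WT-Veh, 494 to 738 (median 639) in WT-PMX, 284 to 405 (median 368) in Arc-Veh and 262 to 484 (median 389.7) in Arc-PMX. All 12 Arctic wells lay below all 12 WT wells, and the difference was -0.87 ± 0.13 between Arc-Veh and WT-Veh (edgeR adjusted p = 7.0e-06). Astrocytes also had lower *Wnk2*, a kinase of the family that regulates chloride carriers (-0.63 ± 0.17, adjusted p = 0.00897), *Maob*, a monoamine oxidase (-0.58 ± 0.17, adjusted p = 0.0155), and *Plcl2* (-1.06 ± 0.36, edgeR adjusted p = 0.0458). Averaged over both treatments, astrocyte *Glul*, *Wnk2* and *Maob* were still called and astrocyte *Plcl2* was not. In oligodendrocytes *Slc4a10*, a sodium-driven bicarbonate carrier, was lower (-0.91 ± 0.23, edgeR adjusted p = 0.0171), and *Gnao1*, a G protein subunit, was higher (0.43 ± 0.12, edgeR adjusted p = 0.0354). *Gnao1* lies outside the 5 largest and was named after its value was seen.

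PMX205 comparisons of the wider list gave 0 calls by edgeR (5, 5 and 7 of 211 pairs at an unadjusted p under 0.05 in Arctic mice, in WT mice and for the difference of the effects). Of the 56555 pairs of all genes, 1302, 2098 and 1834 had such a p in the same order. With both treatments averaged, 10 of 211 pairs of the wider list were called, 7 lower and 3 higher, where 4.33% of all pairs were called, again a share near that of the list. The largest 5 by absolute difference were *Glul* (-0.81), *Wnk2* (-0.70) in astrocytes, *Slc4a10* (-0.70) in oligodendrocytes, *Trak1* (0.62) in microglia and *Igsf9b* (0.52) in OPCs, with edgeR adjusted p of 9.3e-09, 1.5e-05, 0.00202, 0.0329 and 0.0346. *Glul* lay at 627, 575 and 279 CPM in clusters 5, 6 and 23 over wells of all groups, and at 286 CPM in cluster 17 over Arctic wells only. Within cluster 6 it was 663 and 677 CPM in WT-Veh and WT-PMX and 465 and 510.1 CPM in Arc-Veh and Arc-PMX, a difference that was not tested, where *Slc6a11* was 347 and 422 against 371 and 426 CPM. Within cluster 5 *Glul* was closer between genotypes, at 655 and 644 CPM in WT-Veh and WT-PMX. Arc-Veh (3 wells) had 623 CPM there and Arc-PMX (5 wells) 575 CPM. Cluster 23 had 336 and 307 CPM in WT-Veh and WT-PMX, and 204 and 269 CPM in Arc-Veh and Arc-PMX.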

How the data were processed

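The authors deposited whole-number counts of transcripts per gene and nucleus for 7 sublibraries, with deposited tables of gene names and of barcodes with their wells. The submitters' processing notes name bcl2fastq and mm10, and the tables have the layout of the Parse split-pool pipeline, whose version and use of strand are not given in the sources used here. Groups came from the authors' sample sheet of wells. The 25 members, the wider list and the markers were chosen with earlier results of these data known.

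Nuclei of the 24 single-nucleus wells with over 300 and under 50000 transcripts, over 400 genes and under 1% mitochondrial counts were kept. Scrublet removed 1253 nuclei with a score over 0.25. Leiden clusters (scanpy 1.11.5, 2000 variable genes, 30 components, 15 neighbours, resolution 1.5) were named by a marker score of at least 0.5 with at least 3 detected markers, a rule set after the clusters were seen. The depth was 3451188 to 25512274 transcripts of neurons per well.

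Counts were summed per well and type (at least 10 nuclei) and tested with edgeR 4.0.16 (quasi-likelihood, TMM, filterByExpr, 4 groups in 1 fit, sex as covariate), with Benjamini-Hochberg adjustment over all genes of a type and comparison. SE and 95% intervals are approximate, from the test statistic. DESeq2 1.42.0, other filters, and fits without single wells were alternatives. Shares were compared with exact permutation tests over wells. Named were all 25 members, with values by group for those called and for *Gad1*, *Gad2*, *Slc12a2* and *Slc12a5*, and up to 5 called genes of the wider list per comparison. Scripts were tested on simulated data. Same-numbered wells correlated by 0.0409 to 0.101 on average, and other wells by 0.0364 to 0.0716, so the numbers were not used as pairs. Promoters came from RefSeq (GRCm38.p6).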

Additional observations from a re-analysis of the deposited data

Results flagged for a closer look

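Of 100 groups of wells examined for the called genes and for *Gad1*, *Gad2*, *Slc12a2* and *Slc12a5*, 6 held a well far from the others by Dixon's criterion, and chance flags about 1 in 20 groups. *Gabrb1* in oligodendrocytes was 118 CPM in Arc-PMX M2, against 34.4 to 51.1 in the other wells of the group. *Gad1* in OPCs was 17.2 CPM in WT-Veh F3, against 61.8 to 84.5. *Slc12a2* was 19.9 CPM in CA1 of Arc-Veh F1 (others 24.1 to 26.4), 56.4 CPM in astrocytes of Arc-PMX F3 (others 18.4 to 32.5) and 261 CPM in microglia of WT-Veh M2 (others 63.8 to 94.7). *Slc12a5* in CA3 was 155 CPM in Arc-Veh F2, against 105 to 120 in the others.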

How the results depend on the processing

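The number of members called between Arc-Veh and WT-Veh, 2 as reported, was 4 with no filter on low counts, 4 with only the 2 groups compared in the fit, and 1 with the neuronal marker level as a covariate (chosen after seeing the data). It ranged from 1 to 3 with single wells left out. Averaged over both treatments, 8 calls became 4 with doublets kept, 4 with each nucleus named by its highest marker score, 3 with the neuronal covariate, and 3 to 9 with single wells left out (3 without WT-PMX M2). With no filter they became 11, the added ones being *Kctd8* in CA3 (-0.58, adjusted p = 0.0245), *Gabbr2* in astrocytes (-0.48, adjusted p = 0.00418) and *Slc12a2* in microglia (0.91, edgeR adjusted p = 0.0403). Between Arc-PMX and Arc-Veh, 0 calls became 1 with no filter, microglial *Slc6a11* (-4.75, edgeR adjusted p = 0.000347). In microglia this gene ran from 0 to 180 CPM (median 4.35) in Arc-Veh and was 0 in all Arc-PMX wells. The Arc-PMX minus Arc-Veh difference in interneuron share, -0.408 points, was 0.798 with names by highest score and 4.40 with the *Meis2* cluster added (chosen after seeing the data), and -0.987 to 0.276 with single wells left out. The WT-PMX minus WT-Veh difference, 0.0293, was -0.249 with doublets kept, -0.130 with over 500 transcripts and genes required, and -0.522 to 0.504 with single wells left out, and Arc-Veh minus WT-Veh stayed between 0.834 and 2.10. Within single astrocyte clusters, *Slc6a11* turned from lower to 0.041 and 0.11 (Arc-Veh minus WT-Veh, clusters 6 and 23) and to 0.011 and 0.10 (averaged), and *Gabrg1* to 0.0048 (averaged, cluster 6). With the replicate block, 2 and 7 members were called, the averaged call of oligodendrocyte *Gabrg3* being lost (adjusted p = 0.0599, edgeR). Without WT-Veh F3 and M3 the counts were 2 and 8. *Slc6a11* between Arc-Veh and WT-Veh was then not called (edgeR adjusted p = 0.0572), so the 2 were not the same 2 pairs. The cause of these changes was not tested. Depth limits low genes such as *Slc32a1*.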
